A study of Mus musculus with 6 samples.

Results

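The ligands by which tumour cells engage inhibitory receptors of T cells, NK cells and macrophages were followed in 4T1 cells, a mouse mammary carcinoma line. They were chosen by gene symbol from a list of 10: Cd274, Pdcd1lg2, Cd80, Cd86, Cd276, Vtcn1, Pvr, Cd47, Lgals9 and Cd200. Of these, 9 were found among the 31854 rows of the count table, and Pdcd1lg2, which encodes PD-L2, was not analysed here. The control group was 4T1 cells with the empty pLVX vector, labelled WT, and the other group was 4T1 cells with pLVX carrying LINC01133, a human long noncoding RNA; each had 3 libraries. Cells of both groups were grown in culture in the same medium with serum, with no leukocytes named in the labels. The promoter that drives LINC01133 in the vector, and whether the cells of a group were a pool or a clone, are given by no source used here. The comparison asks how the mRNA of each ligand differs between the groups. The level of LINC01133 itself was not analysed here, so the group names rest on the labels.

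Checkpoint ligands are surface or secreted proteins that restrain immune cells on contact. PD-L1 (Cd274) and PD-L2 bind PD-1 on T cells. CD80 and CD86 bind both the costimulatory receptor CD28 and the inhibitory receptor CTLA-4, and B7-H3 (Cd276) and B7-H4 (Vtcn1) are further members of the B7 family. The poliovirus receptor homologue (Pvr, CD155) and the nectins bind TIGIT, CD96 and the activating receptor CD226. CD47 binds SIRPα on macrophages and restrains phagocytosis, CD200 binds CD200R on myeloid cells, and galectin-9 (Lgals9) is a sugar-binding ligand of TIM-3. Cd274 is a well-known target of interferon-gamma through the JAK kinases and IRF1.

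Of the 6 ligands that passed the filter on low counts, Cd274, Cd276, Pvr and Cd47 rose with LINC01133, Lgals9 fell, and Cd80 did not pass the test. The changes ran from 3.2-fold higher for Cd274 to 2.22-fold lower for Lgals9. A gene was called at an adjusted p under 0.05 in edgeR's quasi-likelihood test over all genes. The groups differed widely: 84.9% of the 14116 genes tested were called, 44.5% higher and 40.5% lower. The 5 of 6 ligands called are therefore a share near that of all genes, and the size and direction of each change carry the description. The groups did not overlap for the same 5 ligands, and for 85.0% of all genes tested. Differences of at least 2-fold were called higher in 20.3% and lower in 13.9% of genes tested. Cd274, Cd276 and Lgals9 were past that size. The median log2 fold change was 0.81 over the 6 ligands tested and 0.05 over all genes tested.

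The DNA before the start sites is shown for Cd274, with the largest rise among the 6 tested, and for the 2 ligands whose window held a searched motif. The windows are the 250 bases before the RefSeq start on GRCm38.p6, the assembly also called mm10, written 5′ to 3′ on the strand of the gene. Capitals mark the motif matches.
Cd274 (chr19:29367188-29367437, plus strand): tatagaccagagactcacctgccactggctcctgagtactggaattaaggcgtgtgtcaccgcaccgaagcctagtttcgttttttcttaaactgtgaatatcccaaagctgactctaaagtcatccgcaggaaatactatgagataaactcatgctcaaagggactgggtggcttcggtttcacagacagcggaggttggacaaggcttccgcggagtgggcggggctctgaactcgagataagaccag
Lgals9 (chr11:78984925-78985174, minus strand): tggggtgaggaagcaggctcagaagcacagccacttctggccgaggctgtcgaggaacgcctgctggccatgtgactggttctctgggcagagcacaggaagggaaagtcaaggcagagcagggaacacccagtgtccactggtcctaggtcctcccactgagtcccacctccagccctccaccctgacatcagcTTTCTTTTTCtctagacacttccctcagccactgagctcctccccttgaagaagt
Cd80 (chr16:38458683-38458932, plus strand): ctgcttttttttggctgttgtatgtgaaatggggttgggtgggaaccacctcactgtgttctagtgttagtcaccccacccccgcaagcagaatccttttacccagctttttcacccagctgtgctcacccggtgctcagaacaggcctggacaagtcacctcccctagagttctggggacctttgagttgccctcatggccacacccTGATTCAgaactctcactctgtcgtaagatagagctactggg
The motifs were searched on both strands. They were an interferon-response-like pair of GAAA half-sites with any 2 bases between them, the GAS motif TTCNNNGAA, the E-box CACGTG and the AP-1 motif TGANTCA. RefSeq windows were matched for 8 of the 10 ligands, Pdcd1lg2 among them, in 9 windows. Pvr and Cd86 had no window and were not searched. The GAAA pair was found before Lgals9, 46 to 55 bases before the start on the reverse strand, and the AP-1 motif before Cd80, 36 to 42 bases before the start. No other window of a ligand held a match. Among 32536 windows of the same length, 2.98% held the GAAA pair, 7.04% the GAS motif, 6.04% the E-box and 6.73% the AP-1 motif. These matches are descriptions of letters, and binding of a factor was not measured. The interferon-like pair stood before Lgals9, the ligand that fell, and its relation to that change was not tested. Sites of other spelling, or outside the 250 bases, were not searched. Gene positions, neighbours and distances below use the gene bounds of GENCODE M21 in place of the RefSeq starts. The windows of Cd47, Cd80 and Cd276 lie inside those bounds, so the sources place these starts differently. Cd80 starts at 38455561 in GENCODE.

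Cd274 (uc008hdi.2, chromosome 19, 29367455 to 29388095, plus strand), the gene of PD-L1, had 59, 47 and 40 counts in the controls and 191, 246 and 206 with LINC01133. Levels below are CPM, counts scaled to a common library size with edgeR's TMM factors. Cd274 stood at 2.42, 1.96 and 1.71 CPM in controls 1, 2 and 3 and at 6.48, 6.78 and 6.22 CPM in LINC01133 libraries 1, 2 and 3. All 3 LINC01133 libraries lay above all 3 controls, and the lowest of them was more than double the highest control. The log2 fold change was 1.68 (SE 0.146, 95% interval 1.39 to 1.96, edgeR adjusted p = 5.4e-21). Its absolute log2 fold change was larger than that of 78.1% of genes tested. The level stayed modest in both groups, as the length-scaled values further down show.

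Cd276 (uc009pxc.1, chromosome 9, 58524298 to 58555437, minus strand) encodes B7-H3, a B7 protein found on many tumours whose receptor is not settled. It stood at 10.6, 13.1 and 11.1 CPM in the controls and at 27.3, 25.5 and 26.2 CPM with LINC01133. The groups did not overlap, and control 2 was the highest of the controls. The log2 fold change was 1.18 (SE 0.0707, edgeR adjusted p = 1.8e-33), or 2.27-fold. Vtcn1 (uc008qqx.2, chromosome 3), the B7-H4 gene, had 4 counts in control 1, 1 count in LINC01133 library 1 and 0 in the other 4 libraries. Its ratio of LINC01133 to control was 0.182, with an exact 95% interval of 0.00369 to 1.84, so a difference was not detectable at this depth. B7-H3 mRNA was thus well above the limit of detection in all 6 libraries, and B7-H4 mRNA was not.

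Pvr (uc009fno.2, chromosome 7, 19903578 to 19921160, minus strand) stood at 39.4, 35.7 and 39.3 CPM in the controls and at 76.5, 72.3 and 77.9 CPM with LINC01133. The groups were far apart relative to the spread within each. The log2 fold change was 0.99 (SE 0.0426, edgeR adjusted p = 4.8e-47), or 1.98-fold. Cd47 (uc007zkg.1, chromosome 16, 49800533 to 49915010, plus strand), the signal that restrains phagocytosis, stood at 99.2, 96.1 and 96.3 CPM in the controls and at 149.0, 147.0 and 154.0 CPM with LINC01133. It was the most abundant of the ligands in every library. Its log2 fold change of 0.63 (SE 0.0301, edgeR adjusted p = 1.9e-42), or 1.54-fold, was the smallest among the 4 that rose.

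Lgals9 (uc007kkd.2, chromosome 11, 78962974 to 78984946, minus strand) was the ligand that fell. It stood at 32.5, 35.1 and 35.9 CPM in the controls and at 15.6, 15.7 and 15.3 CPM with LINC01133. The LINC01133 libraries were tightly grouped below all controls. The log2 fold change was -1.15 (SE 0.0607, edgeR adjusted p = 1.7e-38).

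Cd80 and Cd86, ligands best known on antigen-presenting cells, were near the limit of detection. Cd80 (uc007zez.2, chromosome 16) stood at 0.901, 0.583 and 0.938 CPM in the controls and at 1.15, 1.07 and 0.876 CPM with LINC01133. The groups overlapped, LINC01133 library 3 lying below controls 1 and 3. The log2 fold change was 0.35 (SE 0.288, 95% interval -0.21 to 0.92, edgeR adjusted p = 0.24). With scaling by library size alone it was 0.60 and past the threshold (adjusted p = 0.046; range 0.046 to 0.65 over the settings). Cd86 (uc007zcq.2, chromosome 16) had 0 counts in every control and 5, 1 and 5 with LINC01133. That is a bound of 2.67-fold against a floor of 3 counts over the control group. Cd200 (uc007zim.1, chromosome 16) also had 0 counts in every control, with 1, 3 and 2 counts in the LINC01133 libraries and a bound of 1.45-fold. These bounds take the LINC01133 counts as exact, so the true fold can be lower. The floor covers counting error of the controls only, and the interval of the Vtcn1 ratio covers counting error only. Fitted with no count filter, Cd86 was past the threshold (edgeR adjusted p = 0.013), and Cd200 and Vtcn1 were not (edgeR adjusted p = 0.079 and 0.26).

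**Figure D1:**
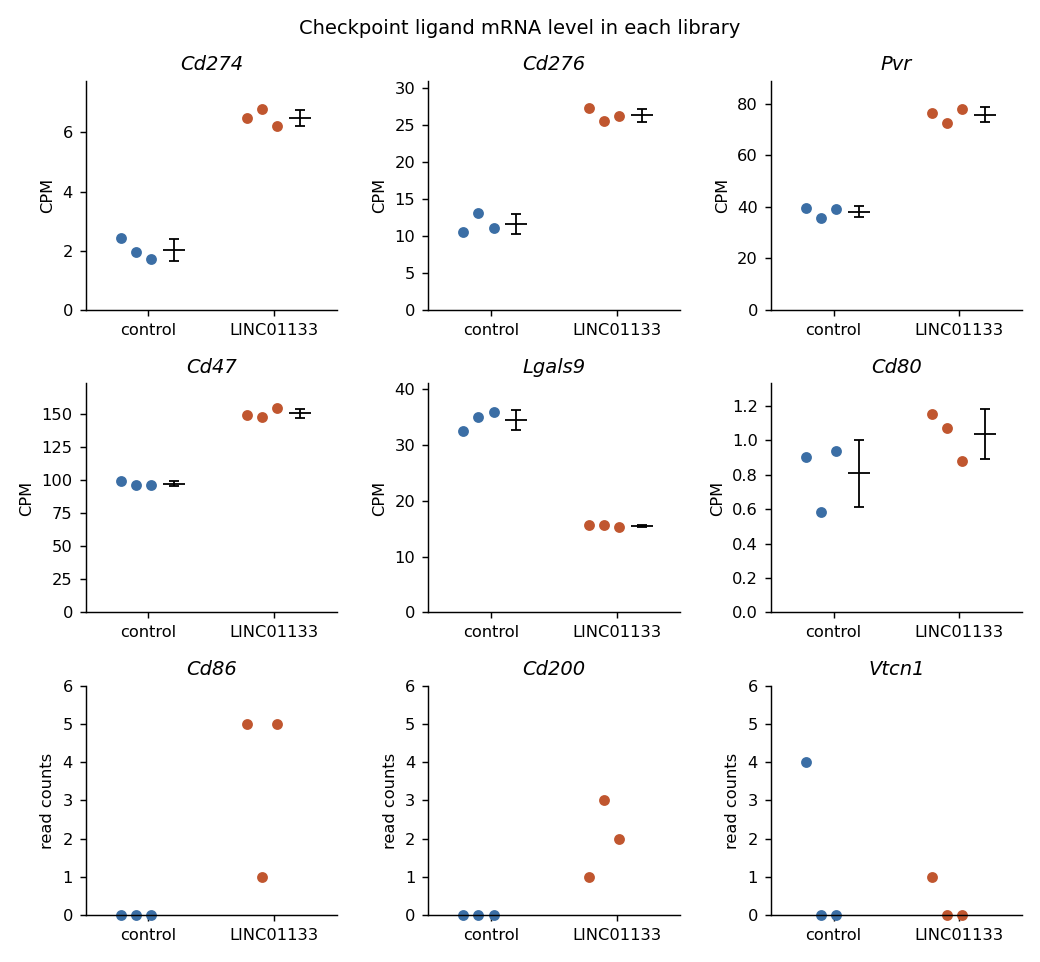
Level of the 9 ligands in each library. Upper 6 panels give CPM on TMM-scaled library sizes with the mean and SD of 3 libraries as black bars; lower 3 panels give read counts, which did not exceed 5. The groups are apart for Cd274, Cd276, Pvr, Cd47 and Lgals9 and overlap for Cd80.

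**Figure D2:**
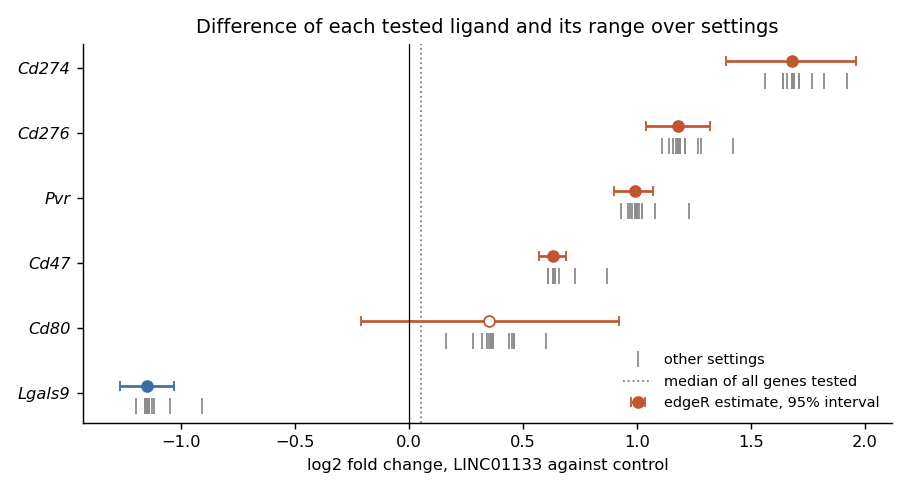
Log2 fold change of the 6 ligands tested, LINC01133 against control, with 95% intervals (circles and bars; open circle, not called) and the value under each other setting (grey ticks). The dotted line is the median of all genes tested, 0.05. Cd274, at 1.68, ranged from 1.56 to 1.92 over the settings, and Lgals9, at -1.15, from -1.20 to -0.91.

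Between genes, levels were compared as CPM per kb of the deposited gene length. In the controls the order was Cd47 (50.8 CPM per kb), Lgals9 (21.7), Pvr (9.54), Cd276 (3.52), Cd274 (0.557) and Cd80 (0.178), and the ranges of neighbours in this order did not overlap. With LINC01133 the order was Cd47 (78.4 CPM per kb), Pvr (18.9), Lgals9 (9.79), Cd276 (7.99), Cd274 (1.79) and Cd80 (0.228), again with no overlap of neighbours. Pvr and Lgals9 exchanged places, and Cd276 came close to Lgals9. Cd86, Cd200 and Vtcn1 were lower than Cd80 in both groups. Among these 3, neighbours overlapped in the controls, and Cd86 and Cd200 overlapped with LINC01133. The summed level of the 9 ligands went from 86.3 ± 0.431 to 117.0 ± 2.39 CPM per kb (SD, n = 3). Cd47 made up 58.8% ± 1.1 of that sum in the controls and 66.9% ± 0.457 with LINC01133, Lgals9 25.2% ± 1.26 and 8.36% ± 0.286, and Cd274 0.645% ± 0.116 and 1.52% ± 0.0968. Among the 6 tested ligands Cd274 rose most in fold but remained a small part of the sum.

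**Figure D3:**
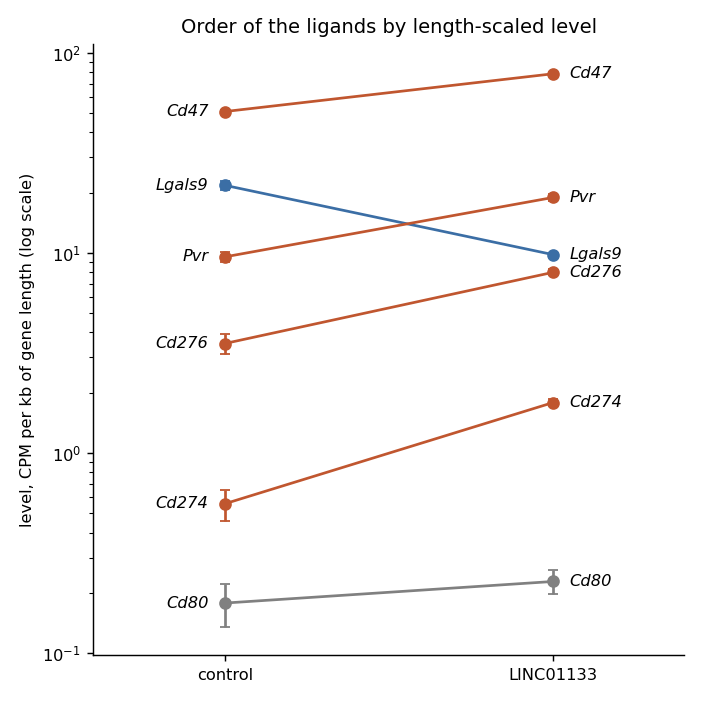
Length-scaled level of the 6 ligands tested in both groups, in CPM per kb on a log scale; points are means and bars SD over 3 libraries. Orange lines were called higher, the blue line lower and the grey line neither; the lines of Pvr and Lgals9 cross.

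The other genes of these pathways were counted from lists. Ligands of inhibitory receptors outside the 10 went both ways, with 6 of 13 tested higher, 5 lower and 2 not called (median log2 fold change -0.09). The nectins, which bind the same receptors as Pvr, were among those that moved most. Nectin3, which binds TIGIT in human cells, fell from 40.3 ± 0.873 to 0.414 ± 0.293 CPM (SD, n = 3; edgeR adjusted p = 3.2e-82), while Nectin1, an adhesion molecule that pairs with Nectin3 and a ligand of CD96 in mice, rose from 0.236 ± 0.0593 to 31.1 ± 0.965 CPM (edgeR adjusted p = 4.4e-82). Nectin2, a ligand of TIGIT and CD226, fell from 66.4 ± 1.36 to 29.9 ± 1.23 CPM. Pvr at 1.98-fold higher thus stood beside a Nectin2 that was lower by 1.15 on the log2 scale. The galectin Lgals3, a ligand of LAG-3, rose from 183.1 ± 2.49 to 331.0 ± 12.6 CPM, and Lgals1, a galectin that can kill activated T cells, fell from 542.0 ± 7.6 to 299.1 ± 5.36 CPM. Of 3 galectins examined, Lgals9 and Lgals1 thus fell and Lgals3 rose. Vsir, the gene of VISTA, a further B7-related inhibitory ligand, rose from 0.278 ± 0.103 to 8.97 ± 0.803 CPM; the protein-coding gene Cdh23 overlaps it on the opposite strand and went from 0.639 to 3.11 CPM. H2-T23, the Qa-1 molecule seen by the inhibitory receptor NKG2A, rose from 1.64 ± 0.161 to 14.03 ± 0.386 CPM; the antisense gene A930015D03Rik overlaps it and went from 1.04 to 3.38 CPM. Its count is uncertain, since it belongs to the class I multigene family.

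Costimulatory and activating ligands were higher in 2 of 7 tested, lower in 4 and not called in 1 (median log2 fold change -0.52). Icosl, the B7 protein that binds ICOS, fell from 3.32 ± 0.0661 to 0.834 ± 0.239 CPM (SD, n = 3). Cadm1, an adhesion molecule bound by CRTAM on T and NK cells, fell from 110.6 ± 4.31 to 43.8 ± 1.82 CPM. Ulbp1, a ligand of the activating NK receptor NKG2D, rose from 47.4 ± 0.58 to 75.8 ± 1.17 CPM, and another NKG2D ligand, H60b, fell from 21.9 ± 0.853 to 15.4 ± 2 CPM. The protein-coding gene Raet1e overlaps H60b on the same strand over 130264 bases and has no level of its own here. Whether the H60b row holds reads of Raet1e was not tested. Tnfsf9, the 4-1BB ligand, was at 10.4 ± 0.373 and 9.85 ± 1.37 CPM and was not called; the long noncoding gene Gm11110 overlaps it on the opposite strand and went from 9.9 to 1.54 CPM. Besides Ulbp1, Icam1 was called higher, from 4 counts over the controls to 85 with LINC01133 (log2 fold change 3.85, edgeR adjusted p = 3.8e-10). The 7 members that were found in the table but not tested had at most 23 counts over a group.

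**Figure D4:**
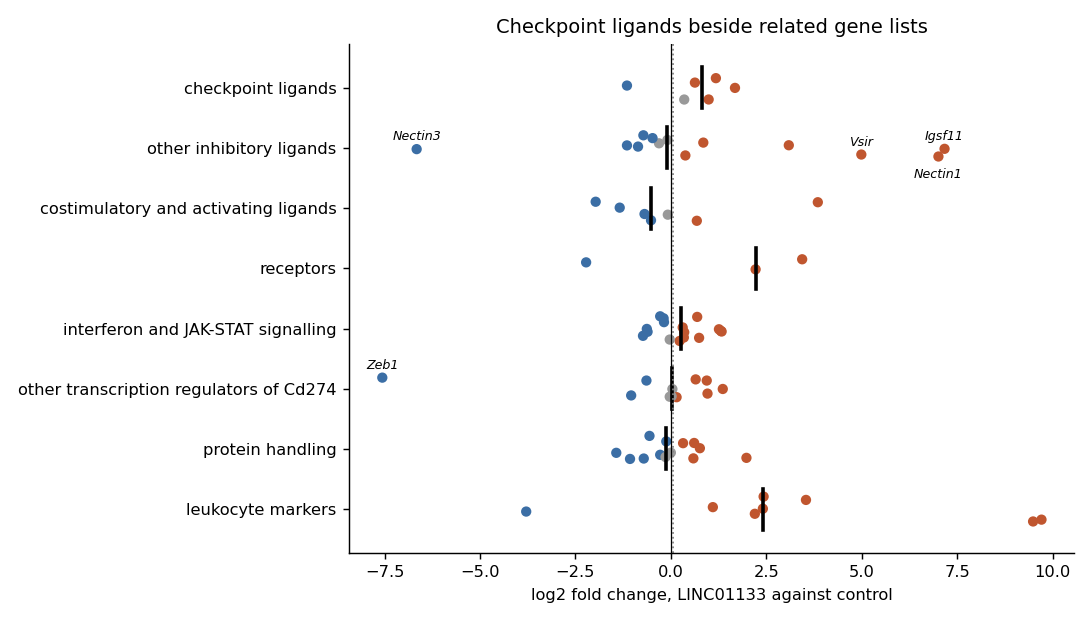
Log2 fold changes, LINC01133 against control, of the tested members of 8 gene lists, 1 point per gene. Orange points were called higher, blue lower and grey neither; black bars are list medians and the dotted line the median of all genes tested. Fitted values of genes with no control read, such as Igsf11, depend on the prior count; list medians were the same with those genes at their bound.

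Genes of interferon and JAK-STAT signalling, a pathway that induces Cd274 and here counted with its inhibitors Socs1, Socs3 and Ptpn2, all passed the count filter and moved in both directions, with 9 of 16 higher, 6 lower and 1 not called (median log2 fold change 0.27). Without TMM factors 3 were lower. Jak2, a kinase of the interferon-gamma receptor, rose from 41.1 ± 1.16 to 103.0 ± 2.35 CPM (SD, n = 3; edgeR adjusted p = 2.5e-66), and its partner Jak1 fell from 257.6 ± 1.36 to 155.7 ± 3.91 CPM. Irf1, the factor that acts on the Cd274 promoter, rose from 28.1 ± 0.0814 to 45.5 ± 2.38 CPM, and Stat2 from 8.75 ± 0.114 to 21.0 ± 1.61 CPM. The receptor chains did not move together, Ifngr1 rising (log2 fold change 0.23) and Ifngr2 falling (-0.63). Socs1, a feedback inhibitor of JAK kinases, rose from 6.56 ± 1.16 to 16.3 ± 0.896 CPM.

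Other regulators of Cd274 transcription were higher in 5 of 11 tested, lower in 3 and not called in 3, and 8 were higher when scaled by library size or by upper quartile. Zeb1 is a transcription repressor that drives EMT, and it is reported to raise PD-L1 by repressing a microRNA. It fell from 50.4 ± 2.38 to 0.265 ± 0.116 CPM (SD, n = 3, edgeR adjusted p = 2.1e-96). Nfkb1 fell from 225.1 ± 3.38 to 109.5 ± 3.58 CPM, whereas Rela, the other subunit of the classical NF-kB dimer, rose from 63.4 ± 2.25 to 99.8 ± 3.42 CPM. The AP-1 subunit Fosl1 rose from 130.3 ± 2.33 to 250.8 ± 3.33 CPM, and Myc, which can bind the Cd274 promoter, rose by a log2 fold change of 1.36. Genes that handle PD-L1 or CD47 protein were higher in 5 of 13, lower in 6 and not called in 2 (median log2 fold change -0.12). Cmtm6, which keeps PD-L1 at the cell surface, rose from 37.9 ± 1.4 to 57.1 ± 2.15 CPM. Its homologue Cmtm4 fell from 188.6 ± 5.1 to 115.0 ± 3.77 CPM. Spop, a ubiquitin ligase adaptor for PD-L1 degradation, fell from 104.4 ± 3.39 to 49.6 ± 1.7 CPM, and its cullin partner Cul3 rose from 145.3 ± 3.62 to 246.8 ± 5.99 CPM. Btrc, an F-box protein that targets PD-L1 for degradation, fell (log2 fold change -1.43), and Hip1r, which sends PD-L1 to lysosomes, rose from 7.68 ± 0.949 to 30.3 ± 0.787 CPM. Qpctl, the enzyme that modifies CD47 for SIRPα binding, was at 13.9 ± 0.122 and 12.7 ± 0.305 CPM and was not called (edgeR adjusted p = 0.09).

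Neighbouring genes on the chromosome went both ways. Plgrkt, a plasminogen receptor gene whose start lies 0.1 kb from that of Cd274 on the opposite strand, went from 7.76 ± 0.419 to 6.10 ± 0.55 CPM (SD, n = 3; log2 fold change -0.35, edgeR adjusted p = 0.0021). The Cd274 window printed above overlaps the start of Plgrkt. Within 500 kb of Cd274, 4 of 12 tested genes were higher, 5 lower and 3 not called, with a median log2 fold change of -0.19. Jak2, whose start lies at -115.6 kb from that of Cd274, was the one of these 12 past 2-fold higher (1.33). Next to Lgals9, Nos2, the inducible nitric oxide synthase gene, was 2719 bases away and rose from 0.74 ± 0.442 to 19.6 ± 2.08 CPM, against the fall of Lgals9. Within 500 kb of Lgals9, 4 of 13 tested genes were higher, 7 lower and 2 not called (median -0.15). Around Cd276, Loxl1 fell by 6.87 and 4930461G14Rik fell by 7.97 on the log2 scale, Hcn4 rose by 7.30, and Nptn, the nearest tested gene on the other side, was not called (0.04). In all, 2 of 7 tested genes around Cd276 were higher, 3 lower and 2 not called (median -0.05). Cd80 lay between Adprh and Timmdc1, which both fell (-0.69 and -0.58). Around Pvr, 13 of 21 tested genes were higher, 6 lower and 2 not called (median 0.43). Over all genes tested, 44.5% were called higher and 40.5% lower, and the counts around the ligands were not tested against these shares. The 500 kb were taken from gene start to gene start by the GENCODE positions. By that measure Cd47 had 1 tested gene within 500 kb, Ift57, a ciliary transport gene that was higher (0.39). On the other side of Cd47, Bbx lay across a gap of 276833 bases and fell from 200.5 ± 5.82 to 125.0 ± 3.25 CPM (-0.68).

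**Figure D5:**
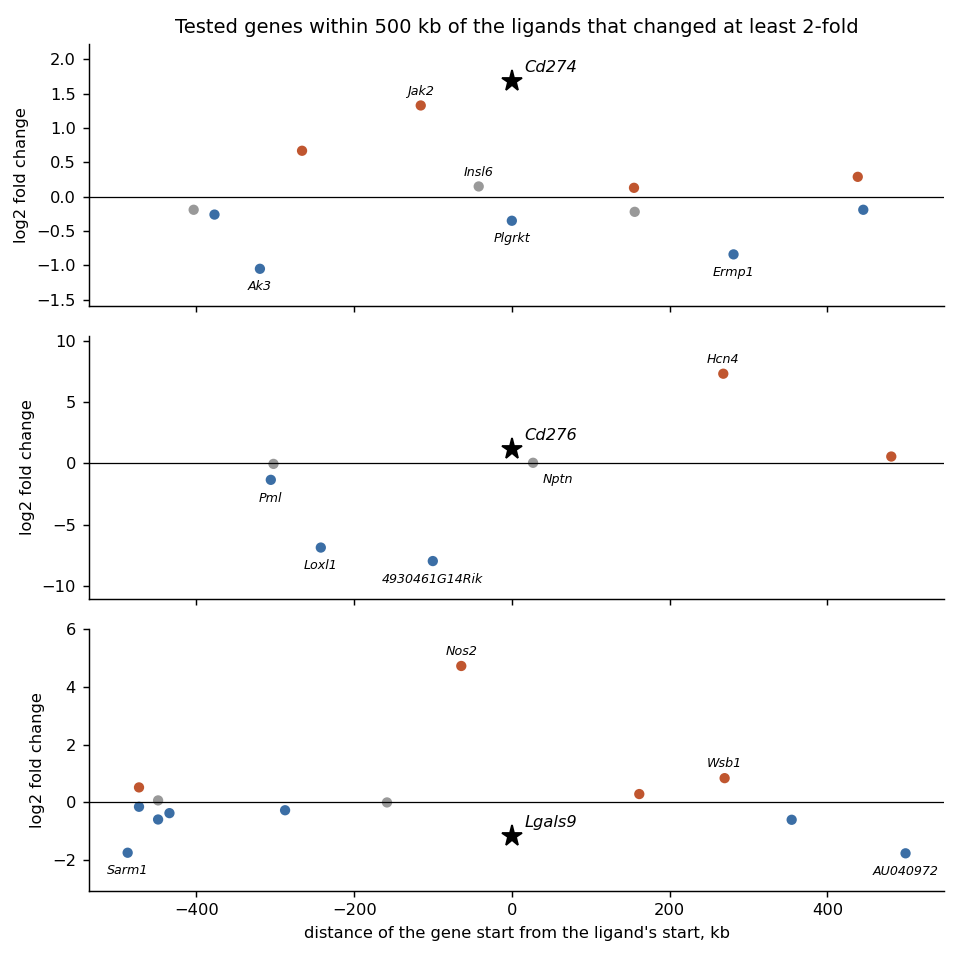
Log2 fold change of tested genes within 500 kb of Cd274, Cd276 and Lgals9, by distance of their start from that of the ligand in kb (positive towards higher coordinates). Stars are the ligands; orange points were called higher, blue lower and grey neither. Nos2 (4.72) and Plgrkt (-0.35) lie on the other side of zero from Lgals9 and Cd274.

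Receptors of these ligands, which belong to lymphoid and myeloid cells, gave a check for other cells in the cultures. Of 12 receptor genes, 3 had no count in any library, among them Cd226 and Cd96, and 3 passed the count filter. Pdcd1, the PD-1 gene, had 0 counts in the controls and 2 with LINC01133. The 3 that passed were Tigit, Havcr2 (TIM-3) and Lag3. Tigit, a receptor of T and NK cells, went from 14.1 ± 0.29 to 65.4 ± 1.3 CPM, Lag3 from 0.223 ± 0.068 to 2.47 ± 0.1 CPM and Havcr2 from 3.09 ± 0.36 to 0.671 ± 0.191 CPM (SD, n = 3). These 3 genes are described after their values were seen. Zbtb20 lies 6264 bases from Tigit and went from 36.6 to 9.75 CPM, and Ptms lies 1975 bases from Lag3 and went from 139.0 to 110.0 CPM. On the other side of Lag3, 16139 bases away, the T-cell gene Cd4 went from 0.0565 to 2.21 CPM. The part of these neighbours in the counts was not tested.

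Of 17 leukocyte markers, 8 were tested, 7 higher and 1 lower, beside 44.5% higher and 40.5% lower over all genes tested. Markers with 0 counts over the controls, such as Cd3g and Itgax, could pass the count filter only through the LINC01133 group. A call of higher was close to fixed in advance for them, so the 7 calls are not a test of direction. The summed level of the 17 markers was 5.78 to 7.03 CPM in the controls and 27.3 to 27.8 CPM with LINC01133. The defining leukocyte marker Ptprc (CD45) was at 5 counts over the controls and 18 over the LINC01133 libraries, and Tyrobp, a myeloid adaptor, had none in any library. The highest members were Cd68, at 10.2 ± 0.245 CPM with LINC01133, Itgam at 6.71 ± 0.632 CPM and Itgax at 3.67 ± 0.193 CPM (SD, n = 3). The T-cell marker Cd3g had 0 counts over the controls and 312 with LINC01133. Cd3e, the other CD3 gene of the list, had 0 and 8. Whether the Cd3g row holds reads of other transcripts was not tested. The myeloid marker Lyz2 was the one that fell, from 1.88 ± 0.465 to 0.129 ± 0.105 CPM. This sum moved in the same direction as Cd274, Cd276, Pvr and Cd47, and its part in those results was not tested. In bulk RNA a change in the share of cells that express a ligand and a change in RNA per cell cannot be told apart. Of 8 epithelial markers of the labelled carcinoma line, 5 of 7 tested were higher and 2 lower. Their summed level was 146.0 to 154.0 CPM in the controls and 375.0 to 384.0 CPM with LINC01133. The luminal keratins Krt8 and Krt18 rose, Krt8 from 145.2 ± 3.81 to 216.9 ± 3.02 CPM and Krt18 from 2.06 ± 0.213 to 158.1 ± 4.44 CPM (SD, n = 3). The basal keratins Krt14 and Krt5 fell, Krt14 from 1.51 ± 0.347 to 0.202 ± 0.0197 CPM and Krt5 from 1.46 ± 0.0297 to 0.220 ± 0.0435 CPM. Epcam and Cdh1, which define epithelial cells, had 0 and 4 counts over the controls and 78 and 138 with LINC01133. Fibroblast and mesenchymal markers were higher in 3 of 7 tested and lower in 4 (median log2 fold change -1.84). Their sum was 3530 to 3620 CPM in the controls and 4010 to 4060 CPM with LINC01133. Most of it was Vim, from 1784 ± 44.8 to 2077 ± 34.7 CPM, and Fn1, from 1503 ± 28.2 to 1932 ± 11.3 CPM. Dcn also rose (log2 fold change 7.82). Against the sum, Cdh2 fell from 104.4 ± 1.75 to 0.0184 ± 0.0318 CPM and Pdgfrb from 106.7 ± 2.47 to 0.774 ± 0.251 CPM. Pdgfra and Col1a1 fell too (-2.15 and -1.84). Endothelial markers were higher in 2 of 2 tested, with a sum of 0.0832 to 0.512 CPM in the controls and 6.08 to 6.59 CPM with LINC01133. These were Pecam1 and Tek, with 11 and 2 counts over the controls and 544 and 67 with LINC01133. They too passed the count filter through the LINC01133 group. The epithelial, mesenchymal and endothelial sums too were higher with LINC01133, and their part in the ligands' results was not tested.

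Total counts were 25521469 to 27035127 in the controls and 26719396 to 33877549 with LINC01133, so 3 counts correspond to 0.0886 to 0.118 CPM on unscaled totals. The ribosomal RNA precursor row Rn45s took 25.4% to 27.9% of control counts and 21.03% to 22.96% of LINC01133 counts. Without TMM factors the median over all genes tested moved from 0.05 to 0.29 on the log2 scale, and 64.9% of calls were higher in place of 52.4%. Under that scaling Cd274, Cd276, Pvr and Cd47 were called higher and Lgals9 lower as before. The antisense or unconfirmed gene models AC119228.1 over Cd274, Gm10657 over Cd276 and Gm16251 over Pvr lie on the opposite strand. Without stated strand counting, their reads and those of the ligands cannot be told apart.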

How the data were processed

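RNA of 6 samples was sequenced from Illumina TruSeq libraries of total RNA, per the labels' protocols. The authors deposited raw whole-number counts per gene with a UCSC identifier, a symbol and a gene length, per the file headers. Per the submitters' processing notes, mm10 was the build and bcl2fastq a tool; aligner, counter, annotation and use of strand were not given in the sources used here. No separate cultures are named, so p-values speak of sample-to-sample spread that may be technical. Replicates of a group differed by a chi-square of 1.608 to 2.318 per degree of freedom, above sampling noise.

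Where a symbol repeated, the row with the highest mean was used for it, and all rows entered the fit. The members and lists were chosen with earlier results of these data known. By rule, the genes named were all members, up to 4 called genes of each list by smallest p, up to 2 in the other direction, the 3 highest markers of a list and the nearest tested neighbours; others named, such as Irf1, Epcam, Cdh1, Lyz2, Cd3g, Cmtm6 and Qpctl, were chosen after their values were seen. Of 132 listed symbols, 128 were found, 3 of them (the nectins) under an older symbol. The test was edgeR 4.0.16 (R 4.3.3), quasi-likelihood, TMM, filterByExpr, Benjamini-Hochberg over 14116 genes, common biological coefficient of variation 0.0237. The method was tested on simulated data in which most genes had no difference. That setting is unlike these data, where most genes were called, so the simulation does not cover a difference this wide. SE is the absolute log2 fold change over the root of F, and intervals are approximate. Levels are CPM on TMM-scaled sizes, computed from the deposited counts. Positions are from GENCODE M21 (GRCm38), matched by symbol, and promoter windows from RefSeq. Alternatives used other scalings, filters, DESeq2 1.42.0, limma voom (limma 3.58.1), a replicate block, and each sample left out.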

Additional observations from a re-analysis of the deposited data

How the results depend on the processing

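Cd274, Cd276, Pvr and Cd47 stayed called higher and Lgals9 called lower in each of 16 other fits: RLE, library size alone, upper quartile, no count filter, at least 1 CPM in 3 libraries, the replicate block, no robust option, DESeq2, limma voom, without the Rn45s row, and without each sample. Their log2 fold changes ranged from 1.56 to 1.92, 1.11 to 1.42, 0.93 to 1.23, 0.61 to 0.87 and -1.20 to -0.91. Cd80 was called by library size alone (0.60) among its 15 fits. With a 2-fold limit added, 2 ligands were higher, Cd274 and Cd276, and over all genes 2860 were higher and 1959 lower, against 6280 and 5710. By library size alone the signalling list had 3 genes lower in place of 6; the other scalings for lists were chosen after seeing the data.

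Replicate numbers did not pair the samples: deviations from the group means of same-numbered samples correlated at -0.017, -0.025 and 0.02 over 11446 genes, and not every sample correlated best with its own number. With the replicate block, 6188 genes were called higher and 5629 lower, and 4 ligands higher and 1 lower. Depth limits Cd80, Cd86, Cd200 and Vtcn1, with at most 102 counts over a group.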
